A study of Rattus norvegicus with 4 samples.

Results

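Rat genes whose symbol is Zfp followed by a number were described in RNA sequencing of whole eye and of retina. They were chosen by symbol, as Zfp, a number and at most 1 letter, and genes without a value were dropped. This family was chosen with earlier results of these data known. The symbol stood on 202 rows for 198 names, 2 of which (Zfp133 and Zfp385d) had no value in either library, and 4 names stood on 2 rows with identical values. This left 196 Zfp genes of 14485 gene names in all. Eye and retina both came from wild-type rats of the pigmented Long Evans strain, and the labels give neither treatment nor age. RNA of 5 rats was pooled for a library, and the labels list 2 technical replicates for each of the 2 tissues. There was 1 column of values for eye and 1 for retina, so every difference below lacks replicates and carries no p-value. The 4 sample descriptions all speak of retina mRNA, whereas titles and tissue labels set eye apart from retina, and the libraries go here by the tissue label.

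Zfp symbols were given in rodents to proteins with zinc fingers, small loops in which cysteine and histidine residues hold a zinc ion. Most of them carry arrays of such fingers that read DNA, and many add a KRAB domain, which recruits Trim28 and histone methyltransferases and silences the bound locus. A minority bind RNA, join ribosomes or the cytoskeleton, or act as ubiquitin or SUMO ligases. KRAB zinc finger genes multiplied by tandem duplication and lie in clusters, and they silence transposable elements and imprinted loci in many tissues.

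Values are RPKM (read counts set against gene model length and library total), a unit inferred from the values. They had been scaled by 28071917 reads for eye and 51944762 for retina. Whole reads could be recovered for 195 of the 196 Zfp genes, as the smallest numbers that fit both values. True reads may be more, and the counting intervals then narrower. The recovered numbers were 7 to 8871 reads per gene in eye and 9 to 32942 in retina. The median was 389 reads in eye and 909 in retina. The fold is the eye value over the retina value, and its exact 95% interval covers the counting error of these reads only. Genes that reached 1 in at least one library were tested, and those at least 2-fold apart on the scale log2((eye + 0.1) / (retina + 0.1)) were called.

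Marker genes followed the tissue labels. Summed lens markers were at 183094 in eye and 1952 in retina (18 of 18 called higher), corneal and conjunctival markers at 5228 in eye and 51.0 in retina (14 of 15), and skeletal muscle markers at 3662 in eye and 14.4 in retina (15 of 15). Of these, 1 corneal marker (Ehf) was listed at 0 in retina. Stromal markers summed to 3937 in eye and 390 in retina (16 of 17 higher), pigment cell markers to 1210 in eye and 264 in retina (8 of 9), and immune markers to 191 in eye and 45.3 in retina (8 of 10). Rod markers summed to 19770 in eye and 39068 in retina (8 of 13 lower, 0 higher), and inner retina markers to 879 in eye and 1516 in retina (2 of 15 lower, 0 higher). In such bulk tissue, fewer cells of a type and less RNA per cell cannot be told apart, and the part of tissue makeup in the differences below was not tested.

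The 196 Zfp genes with values were all detected, at low to moderate levels. None of them was listed at 0 in either library, against 168 and 265 of all genes listed at 0 in eye and retina. This count leaves out Zfp133 and Zfp385d, which were dropped for lack of a value, as were 7 rows in all. Of the Zfp genes 181 (92.3%) had a value of at least 1 in both libraries, against 81.4% of all genes. Their median value was 5.74 in eye and 7.21 in retina, while the medians of all genes were 8.75 in eye and 8.11 in retina. The middle range of Zfp levels, between the quartiles, was 2.96 to 10.2 in eye and 2.96 to 12.7 in retina. Together they held 0.316% of the summed value in eye and 0.681% in retina. Without the lens markers in the sum, a setting chosen after seeing the data, these shares were 0.487% in eye and 0.685% in retina. Across the 196 genes the order of levels was much alike in both libraries, with Spearman's rho 0.89 and Pearson's r 0.89 on the log2 scale. Over the 14156 genes above 0 in both libraries these were 0.86 and 0.81, and genes of 1 library are not independent replicates.

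**Figure D1:**
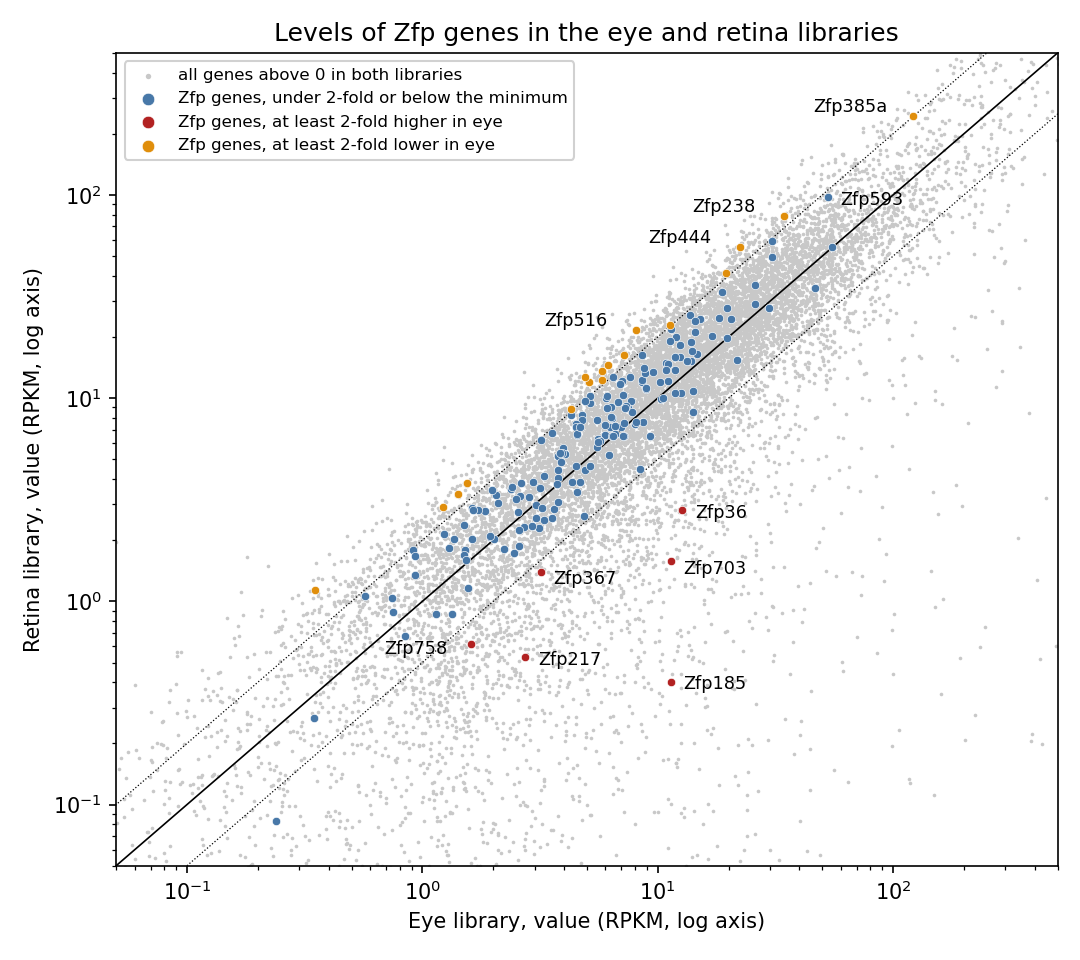
Value of each gene in the eye library (horizontal) and the retina library (vertical), both in RPKM on log axes, with 1 point per gene, the line of equal values (solid) and a ratio of 2 to either side (dotted). The 196 Zfp genes (colours) lie along the line among all genes (grey), with 6 well below it, led by Zfp185 at 11.4 in eye and 0.399 in retina.

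Most Zfp genes had slightly lower values in the eye library, and very few were enriched there. Of 192 tested Zfp genes, 6 were at least 2-fold higher in eye, against 17.8% of all 13259 genes tested. A further 17 (8.85%) were at least 2-fold lower, close to the 7.95% of all genes. The other 169 stayed within 2-fold. With values scaled to equal sums, 4 of 190 tested were higher and 90 lower, against 1363 and 4232 of all 12915 genes. With totals that omit lens genes 8 of 192 were higher and 11 lower, against 2862 and 558 of all 13345 genes. The median log2 fold was -0.34, that is 1.26-fold lower in eye, against -0.01 for all genes, and it was negative under every scaling tried (-0.97 to -0.15).

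The value was lower in eye for 146 of the 192 (76.0%), against 50.7% of all genes. Under the other scalings, which move all genes together, it was lower for 119 to 181 Zfp genes. The median log2 fold of all genes was then -0.67 with equal summed values and 0.18 with totals that omit lens genes. The counting interval of the fold lay below 1 for 120 of the 191 tested Zfp genes with recovered reads (42% of all genes) and above 1 for 31 (41.4% of all genes). It held 1 for the other 40. The spread of differences was narrow, with quartiles of the log2 fold at -0.69 and -0.01, against -0.52 and 0.64 for all genes. The fold bore a weak relation to level (Spearman's rho -0.23 over 192 genes). With the shortest gene model length that fits both values, rho was 0.05 over 191 genes. True lengths may be longer, so a relation of the fold to true length was not tested.

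**Figure D2:**
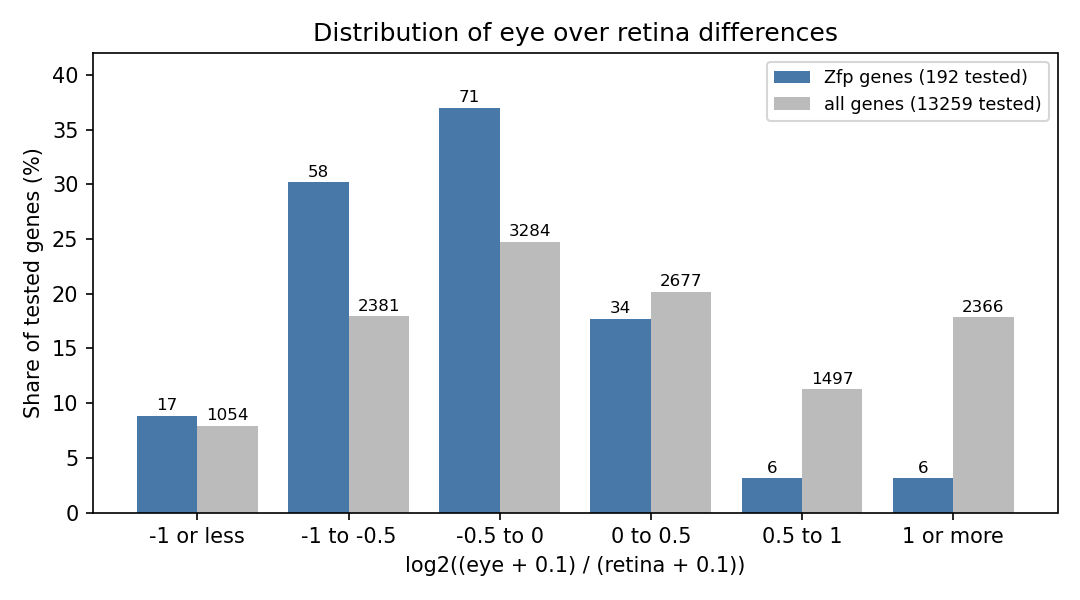
Share of tested genes (vertical, percent) in 6 ranges of the log2 difference of eye over retina (horizontal), for the 192 tested Zfp genes (blue, left) and all 13259 tested genes (grey, right), with the number of genes above each bar. The range from -0.5 to 0 held 71 Zfp genes, and only 6 reached 1 or more, where 2366 of all genes lay.

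The 6 Zfp genes higher in the eye library were Zfp185, Zfp703, Zfp217, Zfp36, Zfp758 and Zfp367. Zfp185 encodes a LIM domain protein that associates with the actin cytoskeleton. Its value was 11.4 in eye and 0.399 in retina, 28.6-fold higher in eye (interval 20.01 to 42.3), on 495 reads in eye and 32 in retina. It was the only Zfp gene more than 8-fold apart. Zfp703 encodes a corepressor whose zebrafish counterpart takes part in closing the optic fissure. It was at 11.4 in eye and 1.58 in retina, 7.19-fold higher (interval 6.26 to 8.28). Its paralog Zfp503, with a known role in development of the retinal pigment epithelium in mouse, had a value of 7.75 in eye and 8.55 in retina. The pair thus had unlike ratios.

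Zfp217, a partner of the CoREST repressor complex, was at 2.74 in eye and 0.534 in retina, 5.13-fold higher (interval 4.03 to 6.58). Zfp36 encodes tristetraprolin, which binds AU-rich elements and speeds decay of cytokine and immediate early mRNAs. It was at 12.7 in eye and 2.82 in retina, 4.52-fold higher (interval 3.91 to 5.23). These 4 genes were also called at a fold of 4 and under every scaling. Zfp758 (1.62 in eye, 0.620 in retina) and Zfp367 (3.19 in eye and 1.40 in retina) were 2.61-fold and 2.28-fold higher. Neither was called with equal summed values or with 1 added in place of 0.1. Just short of the threshold were Zfp277 (8.45 in eye, 4.46 in retina), Zfp691 (4.85 in eye and 2.62 in retina) and Zfp260 (14.2 in eye and 8.53 in retina). The tenth in this order, Zfp51, was already down to 1.34 in eye and 0.863 in retina.

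**Figure D3:**
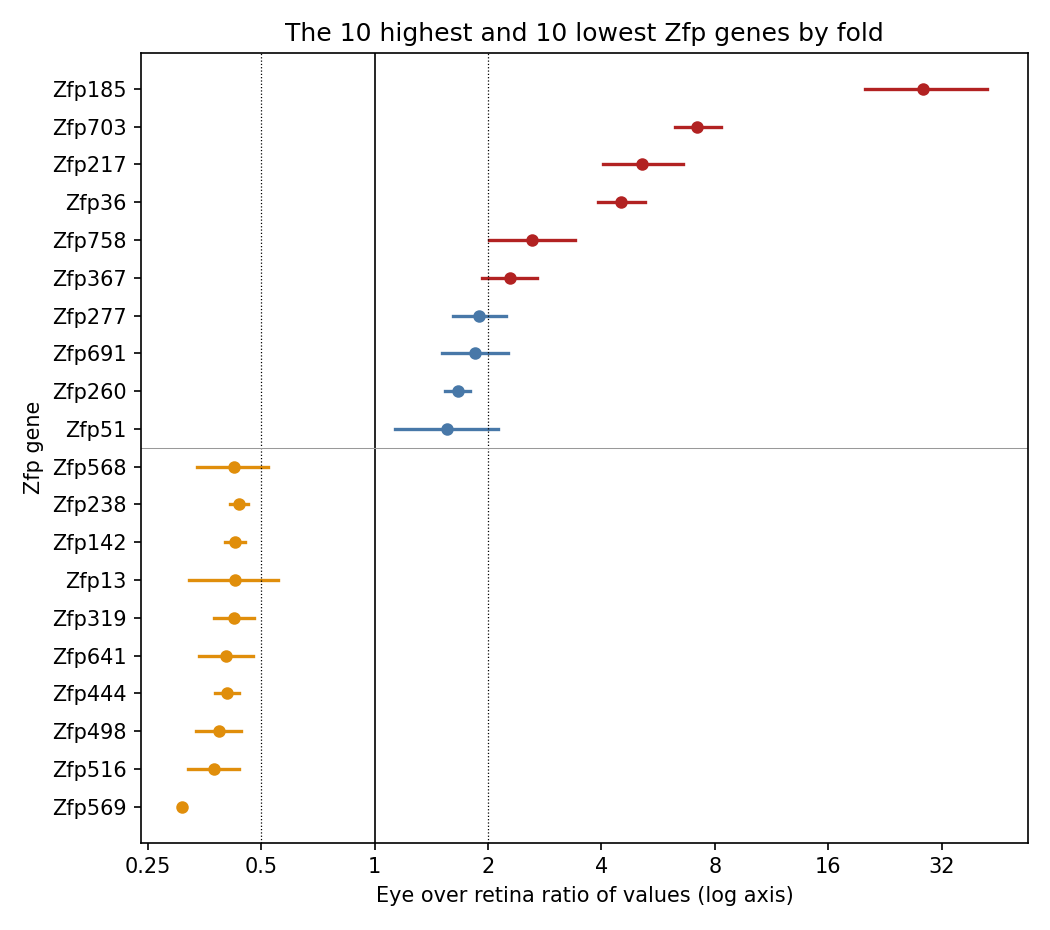
Ratio of the eye value over the retina value (horizontal, log axis) for the 10 Zfp genes of highest log2 fold and the 10 of lowest (vertical), with exact 95% counting intervals as lines. Zfp569, without recovered reads, has no interval. Red marks genes at least 2-fold higher in eye, orange at least 2-fold lower, blue neither, and the dotted lines a ratio of 0.5 and 2. Zfp185 stands apart at 28.6, while the lowest genes lie close together.

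Of the 17 Zfp genes lower in the eye library, 0 reached 4-fold, against 4 of the 6 higher genes. This imbalance was not particular to Zfp genes. Among all 13259 genes tested, a fold of 4 left 12 on the lower side and 1203 on the higher side. The reference now names Zfp569 Znf568l-ps1 and does not place it among protein-coding genes. It had the lowest ratio, with 0.35 in eye and 1.14 in retina, but its values carry 2 decimals and no reads could be recovered. Among those with reads, Zfp516 led, at 8.08 in eye and 21.6 in retina, a 2.67-fold lower eye value (interval 2.29 to 3.13). In mouse it activates brown fat genes. Zfp498, now named Zscan25 and overlapping Hint1l2 in the reference, was at 4.91 in eye and 12.7 in retina, 2.59-fold lower (interval 2.26 to 2.98). Zfp444 was at 22.4 in eye and 55.3 in retina, 2.47-fold lower (interval 2.30 to 2.65). These 3 genes are neighbours in the fold order, so their similar factors follow from that choice, and their levels differed.

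Zfp641 (1.54 in eye, 3.82 in retina), Zfp319 (5.08 in eye and 12.02 in retina), Zfp13 (5.78 in eye and 13.6 in retina) and Zfp142 (6.18 in eye and 14.5 in retina) were 2.35-fold to 2.48-fold lower. The span of Zfp142 overlaps that of Plcd4 in the reference, so the pair may share reads. Zfp238, now named Zbtb18, is a repressor needed for the differentiation of cortical neurons. It was at 34.3 in eye and 78.6 in retina, 2.29-fold lower (interval 2.17 to 2.43), the third highest Zfp level of the retina library. Zfp568, a KRAB gene that silences a placental promoter of Igf2 in mouse, was at 1.42 in eye and 3.38 in retina, 2.37-fold lower (interval 1.92 to 2.96).

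The calls nearest the threshold were Zfp385a, Zfp335 and Zfp956 on its inner side, at 2.01-fold, 2.03-fold and 2.07-fold lower. On its outer side were Zfp324, Zfp592 and Zfp689, at 1.99-fold, 1.96-fold and 1.97-fold lower. None of the 3 inner genes was called with 1 added or with totals that omit lens genes. The span of Zfp956 overlaps Znf783 in the reference. Zfp13, Zfp142, Zfp238, Zfp319, Zfp444, Zfp498 and Zfp516 kept their call in all these settings.

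Zfp385a was by far the most abundant Zfp gene. It encodes an RNA-binding partner of p53. Its value was 122 in eye and 245 in retina, on 8871 reads in eye and 32942 in retina (interval of the lower fold 1.96 to 2.05), ranking 392 of all genes in eye and 117 in retina. Its paralogs Zfp385b (11.95 in eye, 19.9 in retina) and Zfp385c (6.02 in eye and 10.001 in retina) were far less abundant and were 1.67-fold and 1.66-fold lower in eye, short of the threshold. The 3 Zfp385 genes with values (Zfp385d had none) all had the lower value in eye, as did 146 of the 192 tested Zfp genes. The counting interval of each of the 3 excluded 1. The span of Zfp385c overlaps Nkiras2 in the reference. Next in the retina library came Zfp593 at 97.7 (53.0 in eye), Zfp238, Zfp219 at 59.2 (30.5 in eye) and Zfp207 at 55.4 (55.1 in eye). In the eye library Zfp385a was followed by Zfp207, Zfp593, Zfp637 (46.6 in eye, 34.8 in retina) and Zfp238. Zfp207, which encodes a spindle and kinetochore protein, had nearly equal values, and its small difference changed sign with totals that omit lens genes.

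By known role, 50 Zfp genes fell into 6 groups. To set beside their called counts, 17.8% of all genes tested were higher and 7.95% lower in eye. The nervous system development group had 13 tested genes of 14 listed, of which 2 were lower in eye (Zfp238 and Zfp335), 1 was higher (Zfp703) and 10 were not called, with a median log2 fold of -0.54. All but Zfp703 had the lower value in eye, with Zfp292 and Zfp503 on the other side once totals omit lens genes. Zfp335, a component of histone methyltransferase complexes linked to microcephaly, was at 11.3 in eye and 23.0 in retina. Zfp513, a gene linked to retinitis pigmentosa in humans, was at 13.7 in eye and 25.8 in retina, 1.88-fold lower and not called. Zfp365, which encodes a centrosomal protein, had values of 30.7 in eye and 49.5 in retina. Zfp423 and Zfp521, paralogs that act with EBF factors, were at 6.12 and 7.33 in eye and at 8.95 and 9.19 in retina. Zfp191, now Zfp24, which mouse oligodendrocytes need to form myelin, was at 17.1 in eye and 20.3 in retina.

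Zfp462, Zfp804a and Zfp746 were all below 2-fold. Zfp462 had 1.84 in eye and 2.77 in retina, Zfp804a had 4.54 in eye and 6.69 in retina, and Zfp746, a substrate of parkin, had 10.9 in eye and 13.8 in retina. Zfp292 had 5.56 in eye and 6.31 in retina.

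The group of RNA and ribosome proteins had 9 tested genes of 12 listed, with 1 lower (Zfp385a), 1 higher (Zfp36) and 7 not called, and a median of -0.22. Zfp593, which acts in ribosome assembly, was 1.84-fold lower in eye (interval 1.77 to 1.92). Zfp598, a ubiquitin ligase that senses collided ribosomes, was at 15.2 in eye and 24.5 in retina. Zfp346, which binds double-stranded RNA, was at 7.604 in eye and 12.7 in retina. Zfp259, now Zpr1, was at 11.9 in eye and 13.8 in retina. Zfp622, a factor of the large ribosomal subunit, had 6.59 in eye and 7.30 in retina, and the splicing factor Zfp830 had 11.1 in eye and 12.2 in retina. The counting intervals of these last 2 held 1, and the span of Zfp830 overlaps Cct6b.

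Of 18 tested widely expressed regulators (21 listed), 1 was called, Zfp217, and the median was -0.33. Zfp143, which binds promoters of many genes, was at 8.89 in eye and 11.1 in retina. Zfp148, a factor of GC-rich promoters, had 19.7 in eye and 19.8 in retina, and Zfp644, a partner of the methyltransferase Ehmt2 linked to high myopia in humans, had 6.48 in eye and 6.50 in retina. These 2 were level between the libraries and changed sign with the scaling. Zfp219 differed by 1.94-fold, and its span overlaps Arhgef40 and Tmem253 in the reference. Zfp592 and Zfp532, which bind the chromatin reader Zmynd8, were at 6.47 and 12.5 in eye and at 12.7 and 18.2 in retina. Zfp609, a partner of the Integrator complex, was at 1.24 in eye and 2.15 in retina. Zfp451, a SUMO ligase, had 6.34 in eye and 9.05 in retina, and Zfp91, a ubiquitin ligase, 29.8 in eye and 27.7 in retina. Zfp410, known for its control of Chd4, had 10.3 in eye and 9.89 in retina. The rest were Zfp281 (13.9 in eye, 18.9 in retina), Zfp384 (12.4 in eye and 15.9 in retina), Zfp131 (14.7 in eye and 16.4 in retina), Zfp161, now Zbtb14 (9.58 in eye and 13.4 in retina), Zfp263 (6.33 in eye and 8.05 in retina) and Zfp64 (6.41 in eye and 6.52 in retina).

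The epithelial and connective tissue group held 4 tested genes of 6 listed (median -0.26), with Zfp185 higher, Zfp516 lower and Zfp395 and Zfp467 not called. Zfp395 had 13.3 in eye and 15.2 in retina, and Zfp467, which favours fat over bone in mouse, 7.69 in eye and 9.71 in retina. The 3 germline and imprinting genes with values, of 5 listed (median -0.51), were low and not called. Zfp57, which keeps methylation at imprinted loci with Trim28, was at 2.40 in eye and 3.66 in retina, on 62 reads in eye and 175 in retina, and its span overlaps the myelin gene Mog in the reference. Zfp37 had 2.70 in eye and 2.32 in retina, and Zfp39 had 2.10 in eye and 3.04 in retina. The 3 KRAB genes first described in kidney, of 4 listed (median 0.35), had their higher value in eye for Zfp354a (3.64 in eye, 2.83 in retina) and Zfp386 (9.30 in eye and 6.49 in retina) and in retina for Zfp354c (8.59 in eye and 12.04 in retina), none of them called. With equal summed values Zfp354a, Zfp386, Zfp37, Zfp91 and Zfp410 had their lower value in eye.

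**Figure D4:**
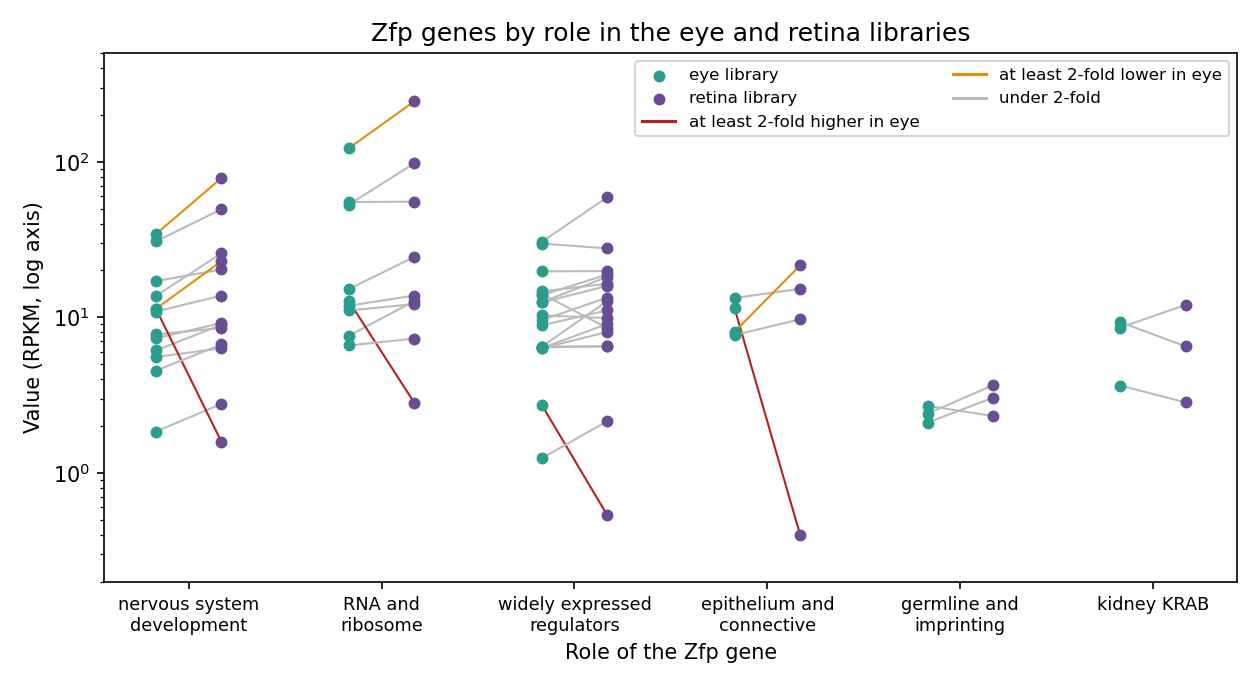
Values in RPKM (vertical, log axis) of 50 Zfp genes grouped by role (horizontal), with the eye library on the left and the retina library on the right of each group and a line joining the points of 1 gene. Red lines mark the 4 grouped genes at least 2-fold higher in eye and orange lines the 4 at least 2-fold lower.

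The other 146 Zfp genes were in none of these groups. Of the 142 tested, 2 were higher (Zfp758 and Zfp367, 1.41% against 17.8% of all genes). A further 13 were lower (9.15% against 7.95% of all genes), and the median was -0.34. Values of the 146 ran from 0.238 to 46.6 in eye (median 4.602) and from 0.0826 to 55.3 in retina (median 5.93). The counting interval lay below 1 for 86 of the 141 tested genes with reads (42% of all genes). It lay above 1 for 23 (41.4% of all genes) and held 1 for 32. Those called lower and not described so far, Zfp862 (1.22 in eye and 2.90 in retina), Zfp653 (7.19 in eye and 16.4 in retina), Zfp579 (5.81 in eye and 12.3 in retina) and Zfp692 (19.6 in eye and 41.1 in retina), are given to complete the 17. The 4 Zfp genes below the minimum were Zfp280b (0.747 in eye, 0.888 in retina), Zfp296 (0.347 in eye and 0.268 in retina), Zfp458 (0.845 in eye and 0.674 in retina) and Zfp93 (0.238 in eye and 0.0826 in retina). Zfp93 rested on 14 reads in eye and 9 in retina, and Zfp296 on 7 in eye and 10 in retina.

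The reference table of the assembly GRCr8 placed 193 of the Zfp genes among protein-coding genes, and 57 of them had another Zfp gene directly beside them, in 24 runs. Of the 56 tested genes with such a neighbour, 0 were higher in eye, against 17.8% of all genes, and 7 (12.5%) lower, against 7.95%. Their median was -0.39. Of the 133 without one, 6 (4.51%) were higher and 9 (6.77%) lower, with a median of -0.31. The difference between these counts was not tested, and Zfp758, among the 6, lies beside a zinc finger gene with another kind of symbol. The longest run held Zfp786, Zfp398, Zfp282, Zfp212 and Zfp956, and all 5 had lower values in eye. So did 47 (83.9%) of the 56 tested genes with a Zfp neighbour and 50.7% of all genes. The 5 genes of the run were at 1.37, 3.78, 7.10, 6.75 and 4.27 in eye and at 2.02, 5.19, 10.3, 9.58 and 8.83 in retina. The run of Zfp26, Zfp426, Zfp266 and Zfp846 was close to level, with 3.04, 6.57, 13.8 and 7.11 in eye and 2.98, 6.65, 15.3 and 6.48 in retina. Among the genes named, the spans of Zfp467, Zfp131, Zfp91, Zfp692 and Zfp458 also overlap another gene with a symbol (Sspo, Zfp131l1, Lpxn, Zfp672 and Zfp455), those of Zfp148, Zfp423, Zfp277 and Zfp180 overlap unnamed genes, and whether counting used strand is not stated. Neighbouring Zfp genes can have near-identical stretches, and the sources used here do not say how reads matching several of them were counted.

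Promoter windows were read from RefSeq (GRCr8) for 161 of the Zfp genes, as the 250 bases before the annotated start. Their median GC content was 57.2%, against 54.8% of 19005 windows of protein-coding genes, and their median number of CpG was 14, against 9. In each window 9 motifs were searched on both strands. The largest excess was in the letters of the site that Zfp143 itself is known to bind, ACTACA and TCCC with any 2 bases between them. They stood in 23 of the 161 windows (14.3%), against 2.39% of all windows. The ETS letters CCGGAAG stood in 19.9% of Zfp windows and 9.52% of all, and the NRF1 letters (GCGCA and GCGC with any base between) in 9.32% and 5.45%. The TATA box letters TATAAA stood in 6.83% and 12.3%. The GC box GGGCGG (44.7% and 40.3%), CCAAT (34.2% and 35.5%), the CRE TGACGTCA (2.48% and 2.03%), the AP-1 letters TGACTCA (1.86% and 3.67%) and the Crx letters TAATCC (3.11% and 5.95%) completed the set. The motifs were searched independently, and a match is a description of letters and not a site in use.

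**Figure D5:**
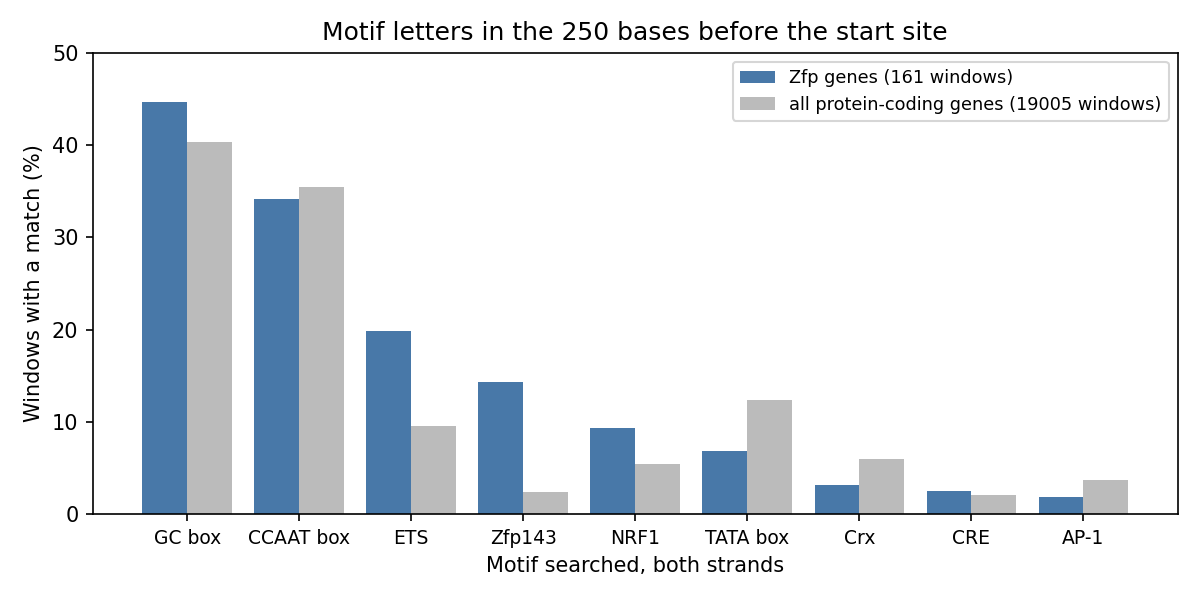
Share of windows with at least 1 match (vertical, percent) for 9 motifs (horizontal) in the 250 bases before the start site, for 161 Zfp genes (blue, left) and 19005 protein-coding genes (grey, right). The Zfp143 letters stand in 14.3% of Zfp windows and 2.39% of all windows.

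Stretches with the Zfp143 letters are shown for 6 Zfp genes to set the letters beside genes of different fold and level (RefSeq, GRCr8 coordinates). Capitals mark the 12 matching bases, read on the strand of the gene, and stretches whose capitals begin with GGGA carry the motif on the other strand. Zfp692, Zfp444 and Zfp568 are the 3 matched genes called lower in eye, Zfp691 and Zfp277 had the highest eye over retina folds among matched genes, and Zfp180 the highest eye level. All 6 were thus chosen by their values. Zfp692 and Zfp180, outside the naming rule given below, were added after their values were seen.
Zfp692 (chr10:42988890-42988919, plus strand): ccagagctaACTACAATTCCCggtaggctt
Zfp444 (chr1:76761602-76761631, minus strand): atacctcttGGGAGATGTAGTttccagctg
Zfp568 (chr1:94334734-94334763, plus strand): aggctttttGGGAAATGTAGTttacaaagg
Zfp691 (chr5:138070451-138070480, minus strand): aacatcaggACTACAACTCCCagcatgccg
Zfp277 (chr6:63240016-63240045, minus strand): cggcatgccGGGAGTTGTAGTtcttactct
Zfp180 (chr1:88780300-88780329, plus strand): gagatttctGGGAATTGTAGTtacattgag

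Zfp692 was at 19.6 in eye and 41.1 in retina, a 2.10-fold lower eye value (interval 1.95 to 2.27). Zfp180 was at 25.9 in eye and 36.2 in retina, which is 1.397-fold lower. The 23 matched genes had a median level of 4.53 in eye and 5.67 in retina and a median log2 fold of -0.49, with 3 lower and 0 higher of 22 tested. The 138 genes without the letters had medians of 6.04 in eye and 7.65 in retina and a median log2 fold of -0.38, with 13 lower and 5 higher of 136 tested. Among all genes tested, 7.95% were lower and 17.8% higher. Of the 23, 11 had another Zfp gene beside them, as did 38 of the 138.

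Whole windows (RefSeq, GRCr8) are shown for 4 Zfp genes chosen from the ends of the fold range, the first 2 higher and the last 2 lower in eye. Capitals mark matches of the 9 motifs, none of which overlapped a different motif in these windows. The window of Zfp36 held 2 GC boxes and that of Zfp185 held 1. The window of Zfp238 held 10 GC boxes and 44 CpG at a GC content of 83.6%, and that of Zfp444 held 1 GC box and the Zfp143 letters.
Zfp185 (chrX:155873888-155874137, plus strand): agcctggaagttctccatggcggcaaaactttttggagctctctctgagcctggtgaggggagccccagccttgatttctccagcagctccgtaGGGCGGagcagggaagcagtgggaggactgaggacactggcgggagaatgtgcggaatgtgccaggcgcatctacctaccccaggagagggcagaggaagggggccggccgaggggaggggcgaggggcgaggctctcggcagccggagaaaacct
Zfp36 (chr1:92799109-92799358, minus strand): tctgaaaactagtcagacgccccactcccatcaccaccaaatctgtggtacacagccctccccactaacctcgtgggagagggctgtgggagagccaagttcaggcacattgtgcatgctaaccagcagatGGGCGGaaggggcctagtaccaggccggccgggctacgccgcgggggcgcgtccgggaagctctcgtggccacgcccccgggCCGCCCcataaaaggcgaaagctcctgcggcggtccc
Zfp238 (chr13:91971352-91971601, plus strand): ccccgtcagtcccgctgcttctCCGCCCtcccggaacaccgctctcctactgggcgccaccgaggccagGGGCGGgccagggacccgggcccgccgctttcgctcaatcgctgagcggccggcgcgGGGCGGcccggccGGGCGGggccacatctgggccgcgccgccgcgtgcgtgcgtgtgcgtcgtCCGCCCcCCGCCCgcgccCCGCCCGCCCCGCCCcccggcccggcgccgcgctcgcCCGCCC
Zfp444 (chr1:76761451-76761700, minus strand): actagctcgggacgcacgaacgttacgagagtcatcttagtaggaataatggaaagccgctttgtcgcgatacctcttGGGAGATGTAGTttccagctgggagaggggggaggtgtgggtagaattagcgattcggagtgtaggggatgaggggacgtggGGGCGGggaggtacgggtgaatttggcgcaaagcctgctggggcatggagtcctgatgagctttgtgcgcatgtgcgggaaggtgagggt

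The genes through which KRAB proteins act were listed apart. Of 29 listed partners of KRAB silencing with values, 27 were tested, with 2 higher in eye (17.8% of all genes), 1 lower (7.95% of all genes) and 24 not called. Their median log2 fold was -0.21. Trim28, the scaffold that KRAB domains bind, was at 65.1 in eye and 98.9 in retina, 1.52-fold lower. Ehmt2, a histone methyltransferase, had 31.98 in eye and 55.0 in retina, and Mta2, a subunit of the NuRD deacetylase complex, had 53.0 in eye and 102 in retina. Rbbp7, a histone chaperone of the same complex, went the other way, with 62.4 in eye and 34.7 in retina. Cbx5, a heterochromatin protein, was 2.21-fold higher in eye (20.3 in eye, 9.21 in retina), and Uhrf1, a guide of DNA methylation, 2.78-fold higher (1.90 in eye and 0.685 in retina). Uhrf1 rested on only 27 reads in eye and 18 in retina (interval 1.47 to 5.35). Dnmt3b, a DNA methyltransferase, was 2.19-fold lower (0.556 in eye, 1.22 in retina). With equal summed values 0 partners were higher and 13 lower, against 1363 and 4232 of all 12915 genes.

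The 65 genes with related symbols Znf, Zbtb, Zscan and Zkscan were all tested. Of them 1 (1.54%) was higher in eye, against 17.8% of all genes, and 7 (10.8%) lower, against 7.95%. The other 57 were not called, and the median log2 fold was -0.52. The gene higher in eye was Zbtb32, chosen after its values were seen, at 4.65 in eye and 0.110 in retina. Whether these genes differ from the Zfp genes was not tested.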

How the data were processed

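RNA sequencing libraries of eye and retina were grouped by the tissue in the sample titles. GSNAP, HTSeq and the rat build rn4 are named, per the submitters' processing notes. Their versions, settings, annotation and strand use were not stated there. The values the authors deposited are taken as RPKM, a unit inferred from the values. Reads were searched for in 13760 of the 14156 genes above 0 in both libraries, leaving out genes with few decimals. With totals of 28071917 reads for eye and 51944762 for retina, 13759 of these stood for whole reads within 0.6 of the last printed decimal. These totals were the ones that 94 genes with a length equal to their reference span shared, while 25 genes gave the runner-up. For each gene the smallest fitting reads were taken, and they sum to 71.4% of the total in eye and 63.7% in retina. The recovery was tested on simulated data.

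Of 14533 rows, 7 had ND and were dropped. Of rows with the same name the one with more decimals was kept. The log2 fold used 0.1 added to each value, which understates the change of low genes, a minimum of 1 in either library and a fold of 2. Exact Clopper-Pearson intervals cover counting error only and compare the 2 libraries, not the tissues. Python 3.11.15, NumPy 2.4.6, pandas 2.3.3, SciPy 1.17.1 and matplotlib 3.10.9 were used.

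Symbols were matched to RefSeq (GRCr8) for 194 of 196 Zfp genes, 182 by symbol and 12 by synonym. The assembly differs from rn4, so it served only for names, neighbours and promoter sequence. A planned split by KRAB motif and finger number was not run, since protein sequences were not used here.

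Zfp genes, lists and tests were chosen with earlier results of these data known. Named were the 10 highest and 10 lowest folds, the 5 highest levels per library, the 3 genes nearest a fold of 2 on each side, and genes in the role lists. Of the partner list, the 4 with the highest mean and each called one were named. Not every marker gene is reported here.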

Additional observations from a re-analysis of the deposited data

How the results depend on the processing

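Settings were varied one at a time. The planned splits by KRAB motif and finger number were not run, since protein sequences were not used here. No Zfp gene called at 2-fold changed sign in any setting. The median log2 fold of Zfp genes, -0.34 as reported, was -0.29 with 1 added, -0.33 with no minimum, -0.44 with a minimum of 5, -0.97 with equal summed values, -0.15 with totals without lens genes and -0.33 with the median of ratios. Relative to all genes, at -0.32 as reported, it was -0.28 with 1 added, -0.33 with 0.01 added, -0.33 with no minimum, -0.38 with a minimum of 5, -0.33 without rows of few decimals, -0.30 with equal summed values, -0.33 without lens genes and -0.33 with the median of ratios. The number of Zfp genes lower in eye, 17 as reported, was 9 with 1 added, 0 at a fold of 4, 90 with equal summed values and 11 without lens genes. Of all genes 1054 were lower as reported, and 655, 12, 4232 and 558 in the same settings. With a minimum of 5, 3 Zfp genes rather than 6 were higher. The median of KRAB partners, -0.21 as reported, was -0.18 with 1 added, -0.19 with no minimum, -0.20 with a minimum of 5, -0.84 with equal summed values, -0.023 without lens genes and -0.20 with the median of ratios. Of them 1 was higher with 1 added, 1 with a minimum of 5, 0 at 4-fold and 0 with equal summed values, and 0 were lower with 1 added, 0 without lens genes, 0 for a minimum of 5 and 0 at 4-fold, against 13 with equal summed values. The median of the other zinc finger symbols, -0.52 as reported, was -0.38 with 1 added, -0.54 with 0.01 added, -0.57 with a minimum of 5, -1.10 with equal summed values, -0.34 without lens genes and -0.51 with the median of ratios. Of them 2 were lower with 1 added, 4 with a minimum of 5, 0 at 4-fold, 37 with equal summed values and 1 without lens genes, and 0 were higher with a minimum of 5. These shifts follow from the settings: the scalings moved the log2 ratio by -0.64 with equal summed values and by 0.19 without lens genes, a minimum of 5 tested fewer genes, and a larger added value shrinks low folds. No paired analysis was possible because each tissue had 1 column of values, and for the same reason no replicate could be left out.

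With 1 pooled library per tissue, no difference could be set against a spread between animals. Counting error, taken from the smallest fitting reads, was small for most Zfp genes, with a median of 389 reads in eye and 909 in retina. It was large for genes such as Zfp93, with 14 reads in eye and 9 in retina. Overlapping genes and close paralogs may share reads: 37 Zfp genes overlap another protein-coding gene in the reference.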
